A study of Homo sapiens with 10 samples.

Results

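The genes described here had transcripts whose level in MiaPaCa-2, a cell line from a human pancreatic tumour, was higher 3 to 5 h after the cells met supernatant of stimulated pancreatic stellate cells than at 1 h and at 7 h. They were chosen by measured values. A probe set with 1 gene symbol and a mean log2 level of at least 6 over the 10 arrays was taken when its mean at 3, 4 and 5 h of treatment lay at least 0.5 above both the 1 h and the 7 h treated array. The rule took 335 probe sets of 270 genes, out of 11243 genes with a probe set at that level and 19775 genes with a named probe set. For each gene the qualifying probe set with the highest mean stands for it below, and its peak height is the mean of 3 to 5 h minus the higher of 1 h and 7 h, in log2 units.

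Treated cells received stellate-cell supernatant for 1, 2, 3, 4, 5, 6, 7 or 24 h, and control arrays were labelled 0 h and 24 h. The stellate cells, the matrix-producing fibroblast-like cells of the pancreas, had been primed with combined supernatant of 8 tumour lines. Each condition was 1 Affymetrix U133 Plus 2.0 array of 1 cell line, grown to the same confluence. The labels give no separate cultures and no replicates, so a p-value below measures only the spread between these arrays, and the values at single hours have no replicate check. What the control cells received in place of the supernatant is not given in the sources used here.

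When a cell meets cytokines or stress, ready-made transcription factors such as NF-kB, AP-1, HSF1 and NRF2 switch on genes whose RNAs appear within the first hours. Many of these RNAs are short-lived, and their products include feedback inhibitors, so a pulse that rises and fades is a known form of such a response. In these bulk samples, fewer cells with an RNA and less RNA per cell cannot be told apart.

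The labelled cell type was set against marker genes. VIM (14.5 on the log2 scale, mean over arrays), KRT18 (14.1), KRT8 (11.9) and ZEB1 (10.1) were high, while EPCAM (3.04) and CDH1 (3.58) were low. Of 8 epithelial markers 5 had a mean above 6, which were KRT18, KRT8, KRT19 (11.6), CLDN4 (7.96) and KRT7 (6.85). CLDN7 (5.22) was below 6, as were EPCAM and CDH1. Of 13 stellate cell or fibroblast markers, 6 had a mean above 6, led by COL1A2 (11.8) and COL6A3 (10.1), whereas LUM (2.77), POSTN (3.43), FAP (4.27) and PDGFRB (4.40) were low. Their summed level lay between 12.03 and 12.63 in treated arrays and at 12.62 and 12.78 in the controls. Of 6 leukocyte markers 1 had a mean above 6, and their summed level lay between 7.22 and 8.01 in treated arrays and at 8.22 and 8.20 in the 0 h and 24 h controls.

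The 270 members differed in where their peak stood relative to untreated cells. In 93 members (34.4%) the 3, 4 and 5 h arrays all lay above both controls, against 19.7% of all 20184 probe sets tested, and in 20 members (7.41%) they all lay below both, against 20.9%. In 202 members (74.8%) the 1 h and 7 h arrays both lay below both controls, against 20.7% of all probe sets. In 27 members (10%) they lay above both, against 15.3%. The rule used these treated arrays, so these shares describe the members and support nothing. In 34 members both held, with a peak above the controls and flanks below them. Another 59 were above the controls without such flanks, 168 had low flanks without a peak above both controls, and 9 had neither.

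Stated against the mean of both controls, the 93 members with a peak above both controls had a median of -0.12 at 1 h, 0.12 at 2 h, 0.71 at 3 h, 0.86 at 4 h, 0.62 at 5 h, 0.25 at 6 h, 0.01 at 7 h and 0.14 at 24 h. The other 177 members had a median of -0.89 at 1 h, -0.80 at 2 h, -0.20 at 3 h, 0.19 at 4 h, 0.13 at 5 h, -0.23 at 6 h, -0.67 at 7 h and -0.02 at 24 h. The first set was a pulse above the untreated level, and the second was a return to about that level between 2 low phases. Over all probe sets tested the median stayed between -0.14 and 0.01.

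**Figure D1:**
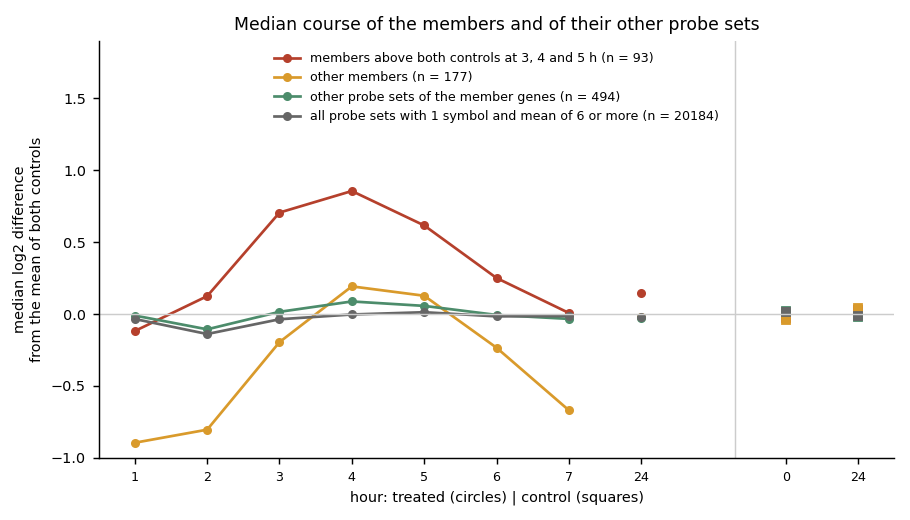
Median log2 difference from the mean of both controls (y axis) by hour for treated arrays (circles, 1 to 7 and 24 h) and controls (squares, 0 and 24 h), 1 array a point. The 93 members above both controls reach 0.86 at 4 h, the other 177 members start at -0.89 and reach 0.19, and the 494 other probe sets of the member genes stay between -0.11 and 0.09.

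Among the treated arrays from 1 to 7 h, the highest was 4 h in 163 members, 5 h in 76, 3 h in 28 and 2 h in 3. Among all probe sets the highest of these 7 arrays was 4 h in 15.4%, 5 h in 18.2% and 3 h in 7.66%. With the 24 h array included, it was the highest of the 8 treated arrays in 40 members. From 1 to 7 h, members with a peak above both controls had 23 of 93 highest at 3 h and 3 at 2 h, while the others had 5 of 177 at 3 h and 66 at 5 h. Peak heights ran from 0.50 to 1.37 with a median of 0.67, and 23 genes reached 1. With the direction of the rule turned round (3 to 5 h lower by 0.5 or more than both ends), 14 genes were found.

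The treated 2 h and 6 h arrays and both controls entered the rule only through the mean of at least 6 over the 10 arrays, and they were set against each other with limma over all 20184 probe sets. No member's probe set passed an adjusted p of 0.05 (Benjamini-Hochberg) in either direction. Over all probe sets 0.00991% passed higher, which were one probe set each of MT1M and NFKBIZ, and 0% passed lower. At an unadjusted p under 0.05, 23 members (8.52%) were higher, against 1.45% of all probe sets, and 61 members (22.6%) were lower, against 5.04%. That filter was not neutral, because 15 members had both controls below 6 and passed it through their treated arrays. Of the 23, 12 were among them, including MAP3K8, IL6R, B3GNT5, TM4SF1, NFATC2 and HSPA6. Differences at 2 and 6 h given below for these genes are therefore descriptions too. Of the other 255 members 11 were higher unadjusted. The share that was higher is therefore a description and no support. The share that was lower is no support either. The rule chose members whose 1 h and 7 h arrays lay below their peak, and the 2 h and 6 h arrays are next to those hours. All 23 belonged to the 93 members with a peak above both controls and all 61 to the other 177, which differ in level by that choice. Both hours lay above both controls in 43 members (15.9%), against 12.1% of all probe sets, and below both in 117 members (43.3%), against 26.6%. The median difference was -0.37 in the members and -0.08 in all probe sets. Because of that choice of members, these shares and the members' median are descriptions too.

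Stress response genes were 5 members, 4 of them with their peak above both controls. Roles were assigned to members after their values had been seen, so counts by role are descriptions. For comparison, 34.4% of all members had their peak above both controls and 74.8% were below both at 1 and 7 h. Over all probe sets these shares were 19.7% and 20.7%. HMOX1, the heme oxygenase that is a classic NRF2 target, measured 11.53, 12.44, 12.86, 12.65, 11.85, 11.17 and 9.80 at 1 to 7 h and 7.81 at 24 h in treated cells, against 7.95 and 9.18 in the 0 h and 24 h controls. From 1 to 7 h every array exceeded both controls, and the 24 h treated array lay below both. At 2 and 6 h HMOX1 was 3.24 ± 0.54 (SE) above the controls, with a limma adjusted p of 0.59.

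HSPA6, a strictly stress-inducible HSP70 chaperone, measured 7.35, 8.94, 9.71, 8.04, 6.68, 6.35 and 5.72 at 1 to 7 h and 5.46 at 24 h in treated cells, against 5.50 and 5.48 in the 0 h and 24 h controls. Its level peaked sharply at 3 h and was within 0.3 of the controls by 7 h. ZFAND2A, an arsenite-inducible zinc finger protein of the proteasome pathway, measured 9.17, 9.82, 10.46, 9.77, 9.50, 9.24 and 8.96 at 1 to 7 h and 8.61 at 24 h in treated cells, against 8.72 and 9.18 in the 0 h and 24 h controls. It too was highest at 3 h, and its 2 to 6 h arrays lay above both controls. HSPA4, a cochaperone of the HSP110 family, followed another course, with its lowest value of 7.77 at 1 h and its highest of 9.94 at 5 h in treated cells, against 9.06 and 9.26 in the 0 h and 24 h controls. ABCC2, an efflux transporter, was 8.91 at its 3 h peak in treated cells, against 8.63 and 8.43 in the 0 h and 24 h controls.

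**Figure D2:**
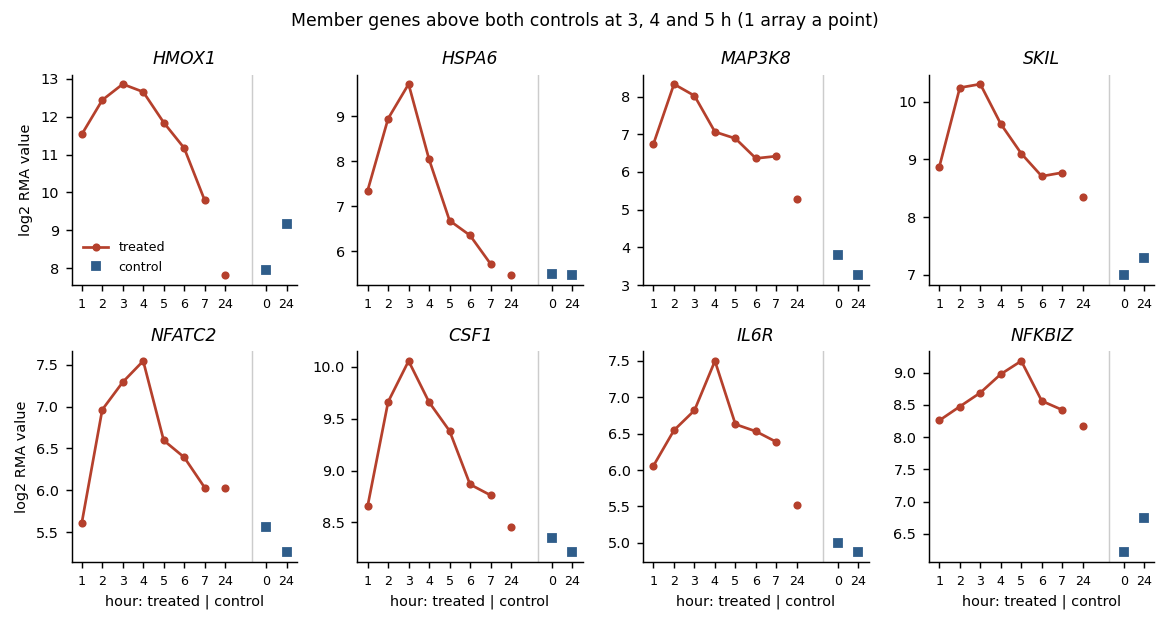
Log2 RMA value (y axis, a separate scale in each panel) of 8 members by hour, treated arrays (circles) left of the controls (squares), 1 array a point. HMOX1, HSPA6, SKIL and CSF1 are highest at 3 h, NFATC2 and IL6R at 4 h, MAP3K8 at 2 h and NFKBIZ at 5 h.

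The start-site regions of 4 members with a pulse above both controls are shown because they hold the letters of motifs read by the stress and cytokine factors named above. They are 300 bases each from RefSeq (GRCh38.p14), from 250 bases before to 50 after the gene start, on the gene's strand and 5′ to 3′. Capitals mark the heat shock element (GAANNTTC or TTCNNGAA) in HSPA6 at chr1:161524290-161524589 (plus strand) and in ZFAND2A at chr7:1160147-1160446 (minus strand). They mark the kappa-B motif (GGGA, any base, then TTTCC) in NFKBIZ at chr3:101827740-101828039 (plus strand) and the AP-1 motif (TGANTCA) in PLAUR at chr19:43670120-43670419 (minus strand). The second capital run of HSPA6 holds 2 overlapping elements.
HSPA6: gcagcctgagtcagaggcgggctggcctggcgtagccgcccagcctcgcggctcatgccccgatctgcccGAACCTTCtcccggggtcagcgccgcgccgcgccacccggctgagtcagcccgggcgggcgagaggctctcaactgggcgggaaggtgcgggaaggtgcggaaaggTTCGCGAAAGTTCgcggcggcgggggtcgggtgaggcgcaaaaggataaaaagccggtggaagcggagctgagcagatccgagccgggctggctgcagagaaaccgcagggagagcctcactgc
ZFAND2A: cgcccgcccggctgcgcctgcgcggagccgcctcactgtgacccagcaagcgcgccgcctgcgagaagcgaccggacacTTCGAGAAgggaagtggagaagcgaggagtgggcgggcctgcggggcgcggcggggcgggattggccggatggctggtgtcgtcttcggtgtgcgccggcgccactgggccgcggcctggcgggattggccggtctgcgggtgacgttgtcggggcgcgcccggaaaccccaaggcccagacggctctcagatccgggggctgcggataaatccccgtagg
NFKBIZ: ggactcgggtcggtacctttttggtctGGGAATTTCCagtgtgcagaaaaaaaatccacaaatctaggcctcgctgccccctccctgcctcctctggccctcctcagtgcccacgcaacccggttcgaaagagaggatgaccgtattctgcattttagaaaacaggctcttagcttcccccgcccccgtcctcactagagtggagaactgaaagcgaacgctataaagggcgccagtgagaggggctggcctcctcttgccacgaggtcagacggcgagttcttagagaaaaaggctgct
PLAUR: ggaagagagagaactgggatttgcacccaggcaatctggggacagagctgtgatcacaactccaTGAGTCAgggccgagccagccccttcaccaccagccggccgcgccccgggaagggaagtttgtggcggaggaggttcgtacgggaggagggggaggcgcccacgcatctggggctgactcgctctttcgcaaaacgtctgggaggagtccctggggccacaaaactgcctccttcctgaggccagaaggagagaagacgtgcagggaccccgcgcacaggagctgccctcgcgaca

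Of the 270 members, 220 matched a promoter in the table, 73 of them with a peak above both controls, and the promoter of HMOX1 was not used here. Both strands were searched, and motifs were allowed to overlap. The heat shock element was in 10% of the members' promoters, 13.7% of those of the 73 and 13.7% of all 27305 promoters of that length. The AP-1 motif was in 5.45%, 9.59% and 7.76%, in the same order, and the kappa-B motif in 0.455% (1 member, NFKBIZ), 1.37% and 0.579%. The antioxidant response element (TGACNNNGC) was in 18.6%, 19.2% and 13.6%, the metal response element (TGCACNC or TGCGCNC) in 44.5%, 47.9% and 29.3%, the CRE (TGACGTCA) in 4.09%, 4.11% and 1.98% and the E-box (CACGTG) in 12.3%, 9.59% and 7.43%. A match of letters is a description and not a bound site.

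Secreted ligands, receptors and adhesion molecules numbered 19 members, and 13 of them had their peak above both controls. Their median at 2 and 6 h was 0.32 above the controls, against -0.08 for all probe sets. CSF1, the growth factor of macrophages, measured 8.66, 9.66, 10.06, 9.66, 9.38, 8.87 and 8.76 at 1 to 7 h and 8.45 at 24 h in treated cells, against 8.35 and 8.21 in the 0 h and 24 h controls. Every treated value of CSF1 exceeded both controls, and all 3 probe sets of CSF1 met the rise.

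IL6R, the ligand-binding chain of the interleukin-6 receptor, measured 6.06, 6.55, 6.82, 7.50, 6.63, 6.53 and 6.38 at 1 to 7 h and 5.52 at 24 h in treated cells, against 4.99 and 4.87 in the 0 h and 24 h controls. TM4SF1, a membrane protein of migrating cells, measured 7.34, 7.33, 7.98, 7.83, 7.74, 7.57 and 7.04 at 1 to 7 h and 6.83 at 24 h in treated cells, against 5.85 and 5.86 in the 0 h and 24 h controls. Both genes lay above both controls in all 8 treated arrays, and the pulse sat on a raised level. They were 1.61 ± 0.17 and 1.60 ± 0.18 (SE) above the controls at 2 and 6 h, each with a limma adjusted p of 0.389. The brightest of the 5 probe sets of TM4SF1 had a peak height of 0.11.

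ITGB8, an integrin chain that helps to activate latent TGF-beta, measured 7.27, 8.29, 8.75, 8.53, 8.28, 7.81 and 7.72 at 1 to 7 h and 7.54 at 24 h in treated cells, against 6.95 and 6.92 in the 0 h and 24 h controls. PLAUR, the urokinase receptor, measured 10.33, 11.02, 11.45, 10.99, 10.64, 10.43 and 10.42 at 1 to 7 h and 10.71 at 24 h in treated cells, against 10.25 and 10.33 in the 0 h and 24 h controls. ITGB8 was above both controls in every treated array, and PLAUR by more than 1 only at 3 h. WNT6, a secreted Wnt ligand, peaked at 5 h with 7.13 in treated cells, against 5.79 in both controls, but its brighter probe set had a peak height of -0.46. LPAR3, a receptor of lysophosphatidic acid, peaked at 4 h with 7.92 in treated cells, against 6.55 and 6.26 in the 0 h and 24 h controls. IFNAR2, a chain of the type I interferon receptor, peaked at 4 h with 8.53 in treated cells, against 7.20 and 7.04 in the 0 h and 24 h controls, and was below both controls at 1 and 2 h. The brightest of the 3 probe sets of IFNAR2 had a peak height of 0.09.

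EGFR and ERBB2, growth factor receptors of the ErbB family, followed the other course on their member probe sets. Their brightest probe sets had peak heights of 0.16 and -0.23, and 2 of the 5 probe sets of EGFR met the rule. EGFR measured 9.47, 9.68, 10.10, 10.19, 10.07, 9.56 and 9.49 at 1 to 7 h and 9.82 at 24 h in treated cells, against 10.07 and 10.26 in the 0 h and 24 h controls. No treated array of EGFR exceeded the 24 h control. ERBB2 ranged from 5.71 at 2 h to 7.04 at 24 h in treated cells, against 7.14 and 7.19 in the 0 h and 24 h controls, so all of its treated arrays lay below both controls. LIFR, the receptor of leukaemia inhibitory factor, was highest at 4 h with 8.67 in treated cells, against 8.01 and 8.23 in the 0 h and 24 h controls.

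Of 22 signalling and survival regulators, 11 had their peak above both controls and 13 were below both at 1 and 7 h. MAP3K8, the kinase that links NF-kB activation to ERK, measured 6.75, 8.33, 8.02, 7.06, 6.89, 6.36 and 6.42 at 1 to 7 h and 5.28 at 24 h in treated cells, against 3.80 and 3.25 in the 0 h and 24 h controls. It was highest at 2 h, outside the hours the rule averages, and all 8 treated arrays lay above both controls. The 2 and 6 h arrays were 3.82 ± 0.62 (SE) higher, with a limma adjusted p of 0.59.

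NFKBIZ, an inducible nuclear IkB protein, measured 8.26, 8.47, 8.69, 8.97, 9.18, 8.56 and 8.42 at 1 to 7 h and 8.18 at 24 h in treated cells, against 6.21 and 6.75 in the 0 h and 24 h controls. Its brighter probe set measured 10.91, 10.91, 10.78, 10.85, 11.16, 10.94 and 10.78 at 1 to 7 h and 10.02 at 24 h in treated cells, against 7.97 and 8.01 in the 0 h and 24 h controls. Both probe sets lay above both controls in every treated array, but the brighter one was a plateau with a peak height of 0.02. At 2 and 6 h the member probe set was 2.04 ± 0.23 (SE) higher with a limma adjusted p of 0.389, and the brighter one 2.94 ± 0.17 (SE) higher with a limma adjusted p of 0.0295.

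Regulators of NF-kB and of cell death were also among these members. CYLD, a deubiquitinase that restrains NF-kB, measured 6.87, 7.10, 7.63, 8.14, 7.97, 7.57 and 7.09 at 1 to 7 h and 7.33 at 24 h in treated cells, against 6.98 and 7.41 in the 0 h and 24 h controls. CFLAR, the inhibitor of caspase-8 known as c-FLIP, was 9.29 to 9.30 at 3 to 5 h in treated cells, against 8.70 and 8.79 in the 0 h and 24 h controls, and 5 of its 11 probe sets met the rule. BAX, a pro-apoptotic BCL-2 family protein, reached 9.27 at 4 h in treated cells, against 9.46 and 9.55 in the 0 h and 24 h controls. CYLD and CFLAR passed above the controls at 3 to 5 h, while every treated array of BAX stayed below both controls. The brightest of the 5 probe sets of CYLD had a peak height of 0.09.

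SIPA1L2, a Rap GTPase-activating protein, measured 7.11, 7.50, 8.65, 8.73, 8.24, 7.57 and 7.20 at 1 to 7 h and 6.41 at 24 h in treated cells, against 5.14 and 7.31 in the 0 h and 24 h controls. Its controls lay further apart than its peak was high, so its 1, 7 and 24 h arrays fell between them. CCND1, cyclin D1 of the G1 phase, measured 7.14, 7.96, 8.86, 9.27, 8.95, 8.48 and 8.02 at 1 to 7 h and 7.81 at 24 h in treated cells, against 8.10 and 7.87 in the 0 h and 24 h controls. Its 3 to 6 h arrays lay above both controls and its 1 h array below both. The brighter probe set of CCND1 had a peak height of 0.32.

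Transcription factors and cofactors numbered 20 members, of which 14 had their peak above both controls. SKIL, the SMAD corepressor SnoN, measured 8.87, 10.24, 10.30, 9.61, 9.10, 8.71 and 8.77 at 1 to 7 h and 8.35 at 24 h in treated cells, against 6.99 and 7.30 in the 0 h and 24 h controls. NFATC2, a factor activated by calcineurin, measured 5.61, 6.96, 7.29, 7.54, 6.60, 6.39 and 6.03 at 1 to 7 h and 6.03 at 24 h in treated cells, against 5.56 and 5.26 in the 0 h and 24 h controls. Both genes were above both controls in all 8 treated arrays, SKIL by more than 1 in each and NFATC2 by under 0.1 at 1 h. At 2 and 6 h SKIL was 2.33 ± 0.49 and NFATC2 1.27 ± 0.25 (SE) above the controls, with limma adjusted p of 0.689 and 0.635.

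JUN, an AP-1 subunit, measured 8.81, 8.89, 9.68, 9.92, 9.87, 9.36 and 8.80 at 1 to 7 h and 9.38 at 24 h in treated cells, against 9.07 and 9.81 in the 0 h and 24 h controls. Its peak barely passed the 24 h control, and its other 3 probe sets had peak heights of -0.19, -0.49 and -0.37. ETS1, the founding member of the ETS factor family, peaked at 4 h with 10.47 in treated cells, against 9.38 and 9.16 in the 0 h and 24 h controls, and all 8 of its treated arrays lay above both. KLF13, a Krüppel-like factor, measured 5.15, 5.52, 6.54, 7.29, 6.90, 6.27 and 5.60 at 1 to 7 h and 6.50 at 24 h in treated cells, against 5.98 and 6.82 in the 0 h and 24 h controls. Its 1, 2 and 7 h arrays were below both controls and its 4 and 5 h arrays above both.

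Among 12 non-coding RNAs, 9 had their peak above both controls. MALAT1, the abundant nuclear RNA of splicing speckles and the member with the greatest peak height (1.37), measured 9.88, 10.51, 11.23, 11.31, 11.24, 10.65 and 9.89 at 1 to 7 h and 9.94 at 24 h in treated cells, against 10.18 and 10.43 in the 0 h and 24 h controls. The 2 to 6 h arrays lay above both controls, and the 1, 7 and 24 h arrays below both. Of its 12 probe sets 9 met the rule, with heights of up to 1.84. At 2 and 6 h it was 0.27 ± 0.19 (SE) above the controls, with a limma adjusted p of 0.793.

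LINC00304 measured 6.19, 7.27, 7.34, 7.28, 6.33, 5.92 and 5.27 at 1 to 7 h and 4.82 at 24 h in treated cells, against 4.83 and 5.19 in the 0 h and 24 h controls. NORAD, a cytoplasmic RNA that binds Pumilio proteins, was 8.69, 8.74 and 8.41 at 3, 4 and 5 h in treated cells, against 8.06 and 8.32 in the 0 h and 24 h controls, and below both at the other 5 treated times. A probe set assigned to the ribosomal RNA precursor RNA45SN5 was above both controls in all 8 treated arrays and highest at 3 h, with 6.89 in treated cells, against 5.54 and 5.50 in the 0 h and 24 h controls. MALAT1, LINC00304, NORAD and the RNA45SN5 probe set all had their peak above both controls, while other non-coding members such as SNORA21 did not.

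Chromatin and transcription machinery gave 29 members, of which 4 had their peak above both controls and 26 were below both at 1 and 7 h. At 2 and 6 h 18 of the 29 were below both controls and 1 above both, with a median of -0.64. Among all members 43.3% were below both and 15.9% above both, with a median of -0.37. Over all probe sets these shares were 26.6% and 12.1%. ANKRD11, a regulator that recruits histone deacetylases, measured 7.56, 7.82, 8.72, 9.15, 8.95, 8.44 and 7.59 at 1 to 7 h and 9.26 at 24 h in treated cells, against 9.01 and 9.66 in the 0 h and 24 h controls. ATRX, a chromatin remodeller of heterochromatin and telomeres, measured 7.13, 7.34, 8.08, 8.62, 8.28, 7.46 and 7.24 at 1 to 7 h and 8.49 at 24 h in treated cells, against 8.25 and 8.44 in the 0 h and 24 h controls. Both lay below both controls at 1, 2, 6 and 7 h, with differences of -1.21 ± 0.31 and -0.95 ± 0.18 (SE) at 2 and 6 h, with limma adjusted p of 0.715 and 0.633.

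NIPBL, the cohesin loader, measured 5.20, 5.28, 6.22, 6.62, 6.59, 6.13 and 5.56 at 1 to 7 h and 7.13 at 24 h in treated cells, against 6.74 and 7.18 in the 0 h and 24 h controls. BPTF, a subunit of the NURF remodelling complex, ranged from 7.97 at 1 h to 9.58 at 4 h and 9.79 at 24 h in treated cells, against 9.52 and 9.44 in the 0 h and 24 h controls. All of NIPBL's arrays up to 7 h lay below both controls, and BPTF passed both at 4 h. PHF14, a PHD finger protein, and BRD2, a bromodomain reader of acetylated histones, were exceptions. PHF14 peaked at 4 h with 7.33 in treated cells, against 5.59 and 5.81 in the 0 h and 24 h controls, and BRD2 at 5 h with 10.27 in treated cells, against 9.55 and 9.95. The brighter probe set of PHF14 had a peak height of -0.42.

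Of 21 splicing and RNA processing genes, 19 were below both controls at 1 and 7 h and 5 had their peak above both. THRAP3, a splicing cofactor, measured 7.65, 8.25, 9.17, 9.47, 9.26, 8.48 and 8.06 at 1 to 7 h and 9.50 at 24 h in treated cells, against 8.85 and 9.20 in the 0 h and 24 h controls. SREK1, an SR-related splicing regulator, measured 7.32, 7.61, 7.83, 8.41, 8.44, 7.93 and 7.51 at 1 to 7 h and 8.85 at 24 h in treated cells, against 8.94 and 8.75 in the 0 h and 24 h controls. THRAP3 passed both controls at 4 and 5 h, while SREK1 stayed below both at every hour up to 7 h.

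Cytoskeleton and membrane traffic genes showed the same split, with 26 of 27 below both controls at 1 and 7 h and 4 with a peak above both. AHNAK, a giant scaffold protein under the membrane, measured 6.20, 6.37, 7.34, 8.04, 7.79, 7.37 and 6.40 at 1 to 7 h and 7.00 at 24 h in treated cells, against 7.71 and 7.66 in the 0 h and 24 h controls. DYNC1H1, the heavy chain of cytoplasmic dynein, measured 7.52, 7.78, 9.18, 9.58, 9.39, 8.78 and 8.27 at 1 to 7 h and 9.10 at 24 h in treated cells, against 8.79 and 8.77 in the 0 h and 24 h controls. The exception among the 27 was WIPF3, a WASP-interacting regulator of actin, with 7.43, 8.07, 8.86, 9.18, 8.96, 8.29 and 7.91 at 1 to 7 h and 7.01 at 24 h in treated cells, against 6.67 and 6.55 in the 0 h and 24 h controls. WIPF3 was above both controls in all 8 treated arrays and 1.57 ± 0.18 (SE) higher at 2 and 6 h, with a limma adjusted p of 0.389.

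**Figure D3:**
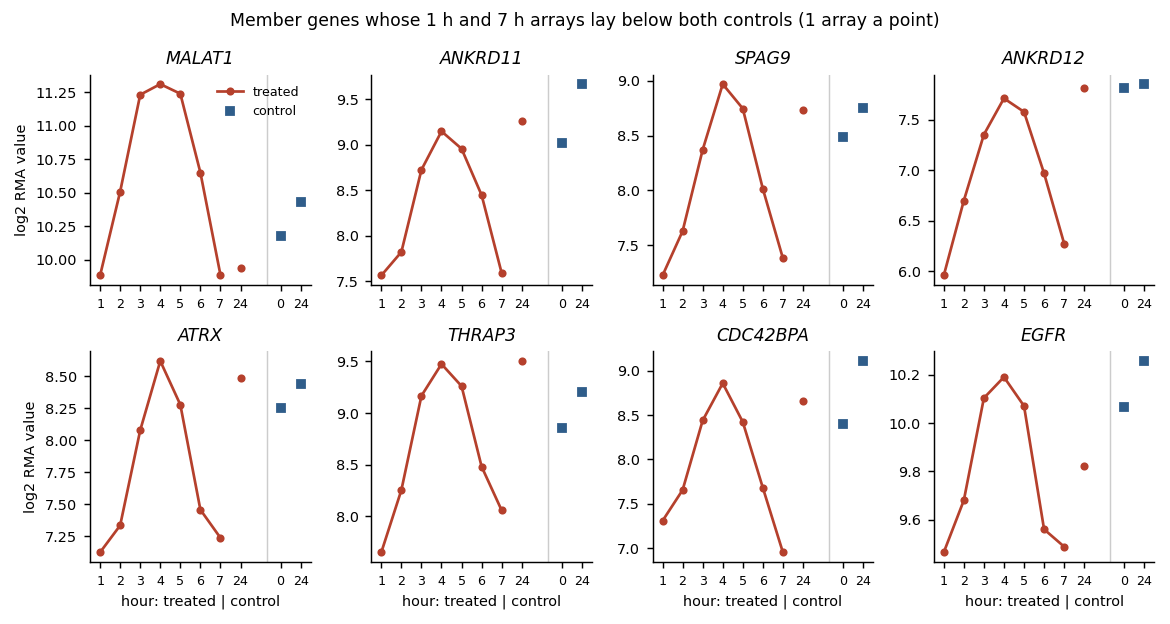
Log2 RMA value (y axis, a separate scale in each panel) of 8 members by hour, treated arrays (circles) left of the controls (squares), 1 array a point. In all 8 genes the 1 h and 7 h treated arrays lie below both controls, and MALAT1 alone among them has 3, 4 and 5 h above both.

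Enzymes and other genes outside these roles included B3GNT5, which starts lacto-series glycolipids. It measured 6.52, 7.93, 8.16, 8.34, 7.98, 7.45 and 7.20 at 1 to 7 h and 6.85 at 24 h in treated cells, against 5.33 and 5.81 in the 0 h and 24 h controls. All 8 treated arrays lay above both controls, with a difference of 2.12 ± 0.26 (SE) at 2 and 6 h and a limma adjusted p of 0.413. CYCS, cytochrome c, measured 6.06, 6.59, 7.61, 8.51, 8.67, 7.97 and 7.13 at 1 to 7 h and 7.84 at 24 h in treated cells, against 7.24 and 7.57 in the 0 h and 24 h controls, while its brightest probe set had a peak height of -0.03. On the member probe set its 3 to 6 h arrays lay above both controls.

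Further members with high peaks kept to the form with low flanks. ANKRD12, a relative of ANKRD11, measured 5.96, 6.70, 7.36, 7.71, 7.58, 6.97 and 6.28 at 1 to 7 h and 7.82 at 24 h in treated cells, against 7.82 and 7.86 in the 0 h and 24 h controls. SPAG9, a scaffold of JNK signalling, measured 7.22, 7.63, 8.37, 8.97, 8.75, 8.01 and 7.38 at 1 to 7 h and 8.73 at 24 h in treated cells, against 8.49 and 8.75 in the 0 h and 24 h controls. CDC42BPA, a kinase bound by CDC42 that acts on myosin, measured 7.31, 7.66, 8.44, 8.86, 8.42, 7.68 and 6.95 at 1 to 7 h and 8.66 at 24 h in treated cells, against 8.40 and 9.11 in the 0 h and 24 h controls. ANKRD12 did not exceed its controls up to 7 h, SPAG9 did so at 4 h only, and CDC42BPA stayed under its 24 h control. The small nucleolar RNA SNORA21 was 8.06 at 5 h in treated cells, its highest, against 7.99 and 7.28 in the 0 h and 24 h controls. SFXN3, a mitochondrial sideroflexin, peaked at 4 h with 8.22 in treated cells, against 7.72 and 7.28, and ANKRD36B at 5 h with 7.19 in treated cells, against 6.70 and 6.51 in the 0 h and 24 h controls. EP400, a chromatin remodeller, reached 8.29 at 5 h in treated cells, against 7.42 and 7.53 in the 0 h and 24 h controls, with 6.31 at 1 h.

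At 24 h the members were close to the untreated level, with a median difference of 0.00 between the treated and the control array, against -0.01 for all probe sets. Higher by 1 or more were 5 members, MAP3K8 (2.02), RUSC1-AS1 (2.00), NFKBIZ (1.43), SKIL (1.05) and B3GNT5 (1.04), against 1.88% of all probe sets, a share near that of the members. Lower by 1 or more were 2 members, against 0.956% of all probe sets. These were ITGB4, a laminin-binding integrin chain, with 6.90 in treated cells against 8.46 in the 24 h control, and HMOX1. LIFR came next at -0.98. ITGB4 and HMOX1 were also higher in the 24 h than in the 0 h control, and against the 0 h control they differed by -0.60 and -0.14.

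Probe sets of the same gene often disagreed. Of the 270 genes, 231 had several probe sets with a mean of at least 6, and all of them met the rise in 13 genes, among them NFATC2, CSF1, HRH1, ANGPTL4, BAX and SIPA1L2. The brightest probe set of the gene met it in 34 genes and did not in 197, where its median height was -0.05. Among members with a peak above both controls it met the rise in 17 and did not in 50, where its median height was 0.11. The 494 other probe sets of the member genes had a median height of -0.02, and 228 were above 0, against a median of -0.10 over all probe sets. For ATRX the brightest probe sets had heights of -0.53 and -0.68, for ANKRD11 -0.38, for SPAG9 0.04 and for DYNC1H1 -0.09. Which transcript forms each probe set reads was not tested.

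**Figure D4:**
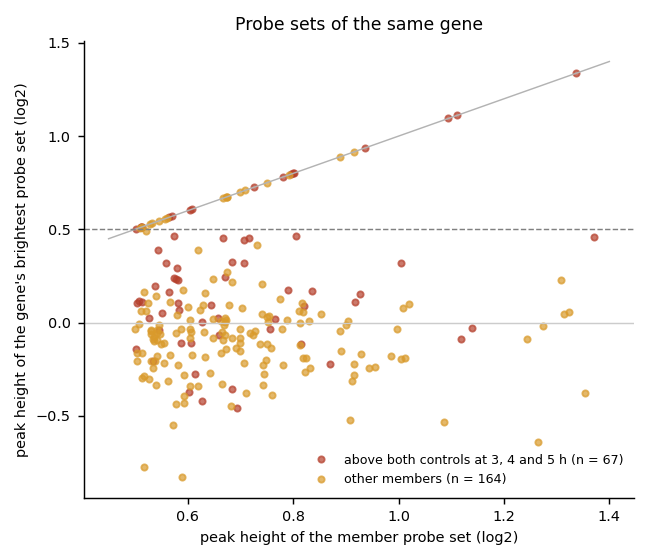
Peak height of the member probe set (x axis, log2) against that of the brightest probe set of the same gene (y axis, log2) for the 231 genes with several probe sets at a mean of 6 or more, 1 point a gene. Points on the diagonal are the 34 genes whose member probe set is the brightest, and most others lie near 0, below the dashed line at 0.5.

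A measure of RNA quality moved with part of the members' course. The 5′ minus the 3′ probe set of ACTB, which falls as transcripts are copied less far from their 3′ end, was -0.65, -0.59, -0.44, -0.43, -0.39, -0.36 and -0.50 at 1 to 7 h and -0.33 at 24 h in treated cells, against -0.29 in both controls. It was lowest at 1, 2 and 7 h, where the 177 members without a peak above both controls were low too. From 4 to 6 h the median difference of all members from their own mean fell from 0.48 to 0.01. Over the same hours the ACTB difference rose from -0.43 to -0.36. The same difference for GAPDH was -0.09, -0.10, -0.04, -0.01, 0.01, -0.01 and -0.05 at 1 to 7 h and -0.01 at 24 h in treated cells, against -0.05 and -0.02 in the 0 h and 24 h controls. Over the treated arrays it was lowest at the same 3 hours, by smaller amounts. The mean of the polyA spikes, which are added to the RNA before labelling, lay between 9.58 and 10.1 in treated arrays and at 9.62 and 9.47 in the 0 h and 24 h controls. The part of these measures in the members' course was not tested.

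**Figure D5:**
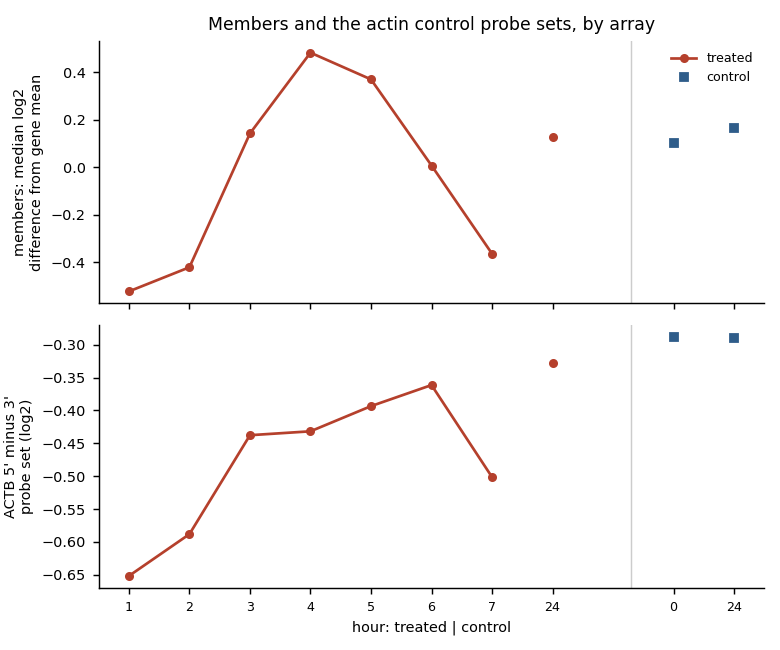
Median log2 difference of the 270 members from their own mean over arrays (upper y axis) and the ACTB 5′ minus 3′ probe set difference (lower y axis, log2) by hour, treated arrays (circles) left of the controls (squares). Both are lowest at 1 h, and the actin difference at 7 h (-0.50) lies below those of 3 to 6 h.

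Each list of a pathway known for such responses held at most 3 members. Of the 11243 genes with a probe set at the level of the rule, 270 were members. Small counts on lists of this size therefore do not show that members were scarce on them. The shares on the lists were not tested. Of 23 measured genes of the NF-kB list 3 were members (NFKBIZ, CYLD and CFLAR), and the list's median at 2 and 6 h was 0.74 above the controls, with 1 passing the limma adjusted test and 12 higher at an unadjusted p under 0.05. Of 26 listed chemokines and cytokines 14 were measured. CSF1 was the only member among them, with a list median of 1.01 and 9 higher unadjusted. Of 19 heat shock genes HSPA6 and HSPA4 were members, and 3 of the 19 were higher unadjusted, with a median of 0.15. Of 21 genes of the HMOX1 and NRF2 list 2 were members (HMOX1 and ABCC2), of 27 ERK genes 2 (EGFR and MAP3K8), of 16 STAT3 and interleukin-6 genes 2 (LIFR and IL6R), of 16 genes of TGF-beta, YAP and proteases 2 (PLAUR and SKIL), of 24 immediate-early genes 1 (JUN) and of 13 p53 targets 1 (ZMAT3). None of 11 measured genes of the list of metallothioneins and zinc transport was a member, with 1 (MT1M) passing the adjusted test, 8 higher and 1 lower unadjusted. No member was on the lists of ATF4 and the unfolded protein response, RNA decay and feedback, interferon and guanylate-binding genes, or ribosome biogenesis and MYC targets. Over all probe sets the median was -0.08, 1.45% were higher and 5.04% lower unadjusted, and 0.00991% passed the adjusted test higher.

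The edge of the rule cut through a continuum. Just inside lay ATP2B1-AS1, RYBP and PRRC2C (at most 0.501), and just outside BNIP3L, PCYOX1 and CALD1 (each 0.499), and 100 of the 270 genes had heights under 0.6. The non-member probe sets whose values over the 10 arrays were most like MALAT1 belonged to NUFIP2 (Pearson r = 0.94), ZNF12 (0.936) and NT5E (0.934). For ANKRD11 they were EIF2S3 (0.976), EHBP1 (0.966) and CACUL1 (0.96), and for SIPA1L2 EEIG1 (0.971), LINC00467 (0.967) and SRSF8 (0.965). These likenesses, over arrays that share 1 cell line, were chosen among all probe sets tested.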

How the data were processed

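RNA of 10 arrays was measured. The authors deposited log2 values from RMA, named without a version in the submitters' processing notes. The platform annotation gave 1 gene symbol to 41097 of 54675 probe sets, more than 1 to 1801 and no symbol to 11777, and 20184 had 1 symbol and a mean of at least 6. Members were found by the stated rule. Treated 2 h and 6 h were set against controls 0 h and 24 h with lmFit and eBayes of limma 3.58.1 (R 4.3.3), two-sided, 2 residual degrees of freedom, with Benjamini-Hochberg adjustment over the 20184 probe sets and a threshold of 0.05. The fit was tested on simulated data with the same spread for every probe set. Spreads differ between probe sets on these arrays, so that test does not show how the fit performs on them. The number of arrays limits the precision. Members, lists, markers and motifs were chosen with earlier results of these data known. Named genes were the 20 highest peaks, the 5 smallest p, members on the gene lists, the threshold's neighbours and the largest 24 h differences; others are examples of a role chosen after their values were seen. Alternatives were other thresholds, filters, arrays, probe sets, scaling (cyclic loess), a trended robust prior and the authors' filtered table. Tables were handled with Python 3.11.15, pandas 2.3.3, numpy 2.4.6 and matplotlib 3.10.9.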

Additional observations from a re-analysis of the deposited data

Results flagged for a closer look

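Probe sets without a single gene symbol were left out of every comparison above. Of 3132 such probe sets with a mean of at least 6, 64 met the same rule, and in 24 of them the 3, 4 and 5 h treated arrays all lay above both controls. They are unnamed here, and no test was made. Among the named genes no array stood apart from the other treated arrays by Dixon's test over the 8 treated arrays. These arrays are different hours and not repeats, and members were chosen for raised values at 3, 4 and 5 h. That test therefore cannot judge the quality of an array here.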

How the results depend on the processing

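The number of member genes, 270, was 439 at a rise of 0.4 and 179 at 0.6, 79 with 6 h in place of 7 h (73 of them shared), 73 with 1 brightest probe set a gene and 52 where every probe set of the gene had to meet the rise. It was 319 and 194 with a mean of at least 5 and 7, 243 with 2 h in place of 1 h, and 257 after cyclic loess scaling (252 shared). Leaving out treated 3 h, 4 h or 5 h gave 400, 216 and 256. At 2 and 6 h against controls the count of members called was 0 in the full table, and 6 in the authors' filtered table (HMOX1, MAP3K8, HSPA6, NFKBIZ, SKIL and B3GNT5), where limma called 29 probe sets higher and 9 lower of 4789. In that fit all 6 had the same SE of 0.463. Their calls therefore follow the size of the difference and not each gene's own spread. MAP3K8, HSPA6 and B3GNT5 also reached the mean of 6 through their treated arrays. The 6 calls are no support. Unadjusted, the full table gave 23 higher and 61 lower. Without 6 h these were 30 and 123, without 2 h 24 and 31, without control 0 h 20 and 34, without control 24 h 18 and 32, and with treated 24 h added 13 and 17. The count of members apart by 1 or more at 24 h was 7, and 46 at a size of 0.5. Members above both controls at 3 to 5 h were 93, 95 after cyclic loess scaling, 138 against control 0 h alone and 119 against control 24 h alone. No paired analysis was possible because each condition is 1 array and the labels carry no replicate numbers. One array a time limits every single-hour value.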
